A study of Mus musculus with 15 samples.

Results

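Mammary epithelial cells from mice injected with AzaC were compared with cells from mice injected with VPA, on 5 arrays that the labels call virgin. The 5 were taken from the 15 arrays of the series by their labels: 3 AzaC arrays and 2 VPA arrays. AzaC (5-azacytidine) is a cytidine analogue that is built into nucleic acids and traps DNA methyltransferases. VPA (valproic acid) is a fatty acid that inhibits histone deacetylases. All animals were female C57BL/6 mice, injected into the peritoneum, and the epithelial cells were released by digestion of the glands. Mice of the arrays labelled virgin were labelled 9 weeks old, and the pregnant labels give no age in weeks. The 2 PBS arrays with the same stage label are the vehicle reference, and a further 3 AzaC and 3 VPA arrays labelled pregnant, day 21, allow the same comparison at the other stage label. The doses, and whether replicates are separate mice, are not given in the labels, so each p-value reflects array-to-array spread that may be technical.

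DNA methylation at CpG dinucleotides near promoters is linked to lasting gene silencing, with germline genes and imprinted genes as textbook targets. Histone acetylation loosens chromatin, and deacetylase inhibitors are known to alter cell cycle and differentiation genes in many cell types. In the mammary gland, luminal cells make milk, basal cells contract around them, and receptors for LIF family cytokines signal through STAT3.

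Before the results, 3 facts on these arrays matter. The stage label is at odds with the milk transcripts: Csn2 (beta-casein) read 13.80, 13.94 and 13.92 on the AzaC arrays, 13.72 and 13.85 on the VPA arrays, and 13.69 and 13.80 on the PBS arrays, on the deposited log2 scale. The 21 genes of milk proteins and secretory differentiation read between 10.38 and 14.39 on all 7 of these arrays, so "labelled virgin" is used for the label only. Luminal markers were present: Epcam (an epithelial adhesion protein) read 11.91, 12.88 and 12.67 on the AzaC arrays, 12.19 and 12.15 on the VPA arrays, and 12.35 and 11.53 on the PBS arrays. Muscle transcripts were bright as well, and Acta1 (skeletal muscle actin) read 11.82, 13.06 and 13.68 under AzaC, 13.21 and 13.61 under VPA, and 13.74 and 11.86 under PBS. The third fact is that AzaC replicate 1 stood apart from AzaC replicates 2 and 3. Over all genes, the SD of the difference between AzaC replicate 1 and the other AzaC arrays was 0.792 and 0.815, against 0.765 and 0.737 between it and the VPA arrays. Replicates 2 and 3 differed from each other with an SD of 0.638, and the VPA arrays with 0.669. PBS replicate 2 had the highest Gapdh 3' minus 5' probe difference, a sign of RNA quality, at 1.23, against 0.01 to 0.19 on the AzaC and VPA arrays.

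No gene of 12393 passed an adjusted p of 0.05 for AzaC against VPA (limma, Benjamini-Hochberg over all genes). At an unadjusted p under 0.05, 813 genes (6.56%) were called, 504 (4.07%) higher in AzaC and 309 (2.49%) lower, and 171 (1.38%) at an unadjusted p under 0.01. The smallest adjusted p was 0.121, shared by Fgf10, Nepn, Cd244a and Taf7l. Without VPA replicate 2, 17 genes passed, Fgf10, Nepn, Cd244a and Dgkq among them, and without AzaC replicate 3, 1 gene did (Neurog1). The first of these settings leaves a single VPA array, which is assumed to vary like the other groups. Fgf10, Nepn, Cd244a and Neurog1 were dim, with means of 4.66, 2.88, 3.27 and 0.67 over all 15 arrays, against 6.88 for Dgkq. A second Cd244a probe set, also with a mean of 3.27, differed by -0.3, and AzaC and VPA overlapped on it. All 3 AzaC arrays lay above both VPA arrays for 1624 genes (13.1%) and below them for 1695 (13.7%), so 26.8% of genes did not overlap. These shares are the background for every list below. Dim genes were frequent among small p-values: 3567 genes (28.8%) had a mean under 6 over all 15 arrays, and they held 37 of the 50 smallest p. The median absolute difference was 0.66 in genes with a mean under 3 and 0.14 in genes with a mean over 12. With both levels and order taken into account, 80 of 8826 brighter genes (0.906%) had an unadjusted p under 0.01 and no overlap, 56 (0.634%) higher in AzaC and 24 (0.272%) lower.

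**Figure D1:**
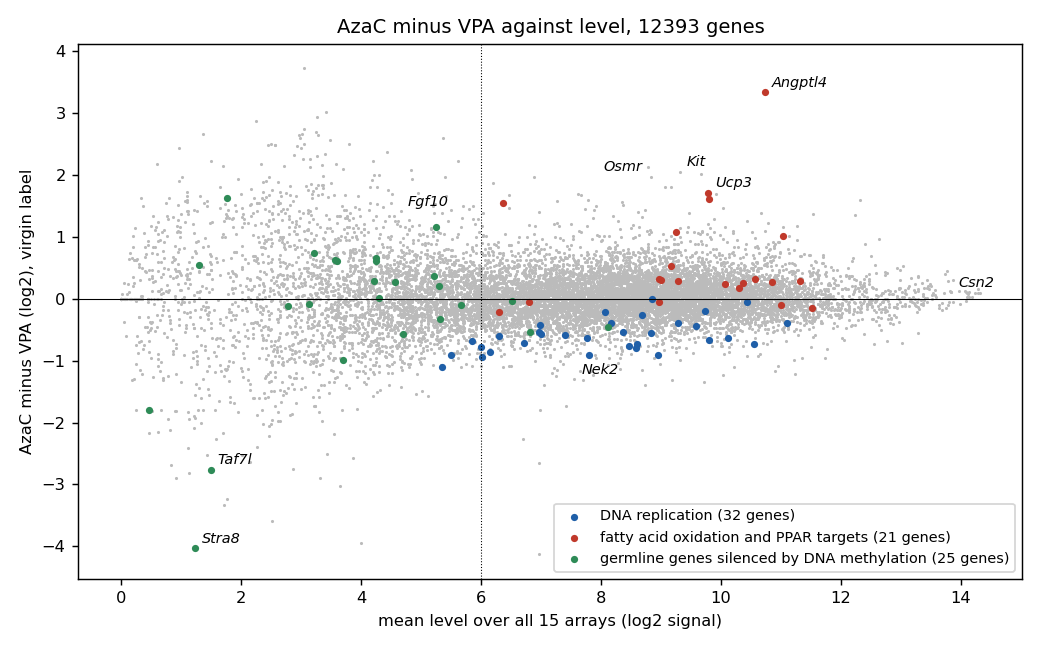
Difference between the AzaC and VPA group means (log2, AzaC minus VPA) against the mean level over all 15 arrays, with 12393 genes as points and 3 lists in colour. The scatter widens below the dotted line at a mean of 6, DNA replication genes all lie under 0, and no gene passed the adjusted threshold.

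The 12 largest differences above VPA among those brighter genes were between 1.19 and 3.33 (log2), and the adjusted p was between 0.367 and 0.695. Angptl4, a secreted inhibitor of lipoprotein lipase, read 9.06, 11.66 and 12.28 on the AzaC arrays, 7.82 and 7.52 on the VPA arrays, and 10.16 and 8.25 on the PBS arrays. The AzaC group lay 3.33 ± 0.80 (SE) above VPA, a ratio of 10.1, with an unadjusted p of 0.00146 and an adjusted p of 0.517. AzaC replicate 1 was the nearest to VPA, and PBS replicate 1 lay above it. The difference was 4.30 without AzaC replicate 1 and 2.69 without AzaC replicate 3. A second, dim Angptl4 probe set differed by 0.59, and the mean of both gave a difference of 1.96. Ucp3, a mitochondrial uncoupling protein, read 9.47, 9.42 and 10.69 under AzaC, 8.06 and 8.25 under VPA, and 9.65 and 8.86 under PBS. Its difference was 1.71 ± 0.38, and the 3 arrays of AzaC lay above the 2 of VPA. Itch (an E3 ubiquitin ligase), Trp53inp1 (a p53-inducible nuclear protein), Dgkq (a diacylglycerol kinase), Mertk (a receptor tyrosine kinase) and Kdm5a (a histone H3K4 demethylase) were in the same group, at 2.12, 1.80, 1.96, 1.25 and 1.19. Dgkq was at 1.27 without VPA replicate 1 and 2.65 without VPA replicate 2. AzaC replicate 1 was the lowest AzaC array for 9 of the 12. Both PBS arrays lay above both VPA arrays for 11 of the 12, and below all AzaC arrays for 3. The 12 were picked by their AzaC and VPA values, and that choice by itself affects where PBS falls. Which agent departs from PBS was not tested.

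The 12 largest differences below VPA ran from -1.30 to -0.71, with an adjusted p between 0.432 and 0.695. Nek2, a centrosome kinase of mitosis, read 7.55, 7.24 and 7.15 on the AzaC arrays, 8.59 and 8.63 on the VPA arrays, and 8.20 and 8.01 on the PBS arrays. Its difference was -1.30 ± 0.32, with an unadjusted p of 0.00194 and an adjusted p of 0.568. Ube2s, a ubiquitin-conjugating enzyme of the anaphase-promoting complex, read 9.96, 10.51 and 10.30 under AzaC, 11.15 and 11.23 under VPA, and 10.61 and 10.70 under PBS. Tbc1d13, a Rab GTPase-activating protein, read 10.16, 9.98 and 10.01, against 10.84 and 10.67 under VPA and 9.84 and 10.07 under PBS, with the smallest p of the 12 at 0.00096. Both PBS arrays lay below both VPA arrays for all 12 genes, and above all AzaC arrays for 3. These counts too depend on how the 12 were picked, and do not show which agent departs from PBS. On the pregnant-labelled arrays, the same 12 genes had differences between -0.33 and 0.38, 6 of them of the same sign, and the 12 genes higher in AzaC had differences between -0.45 and 0.40, again 6 of the same sign. None of the 24 had an unadjusted p under 0.05 there, where 468 of all genes (3.78%) did and 0 passed the adjusted threshold (limma).

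**Figure D2:**
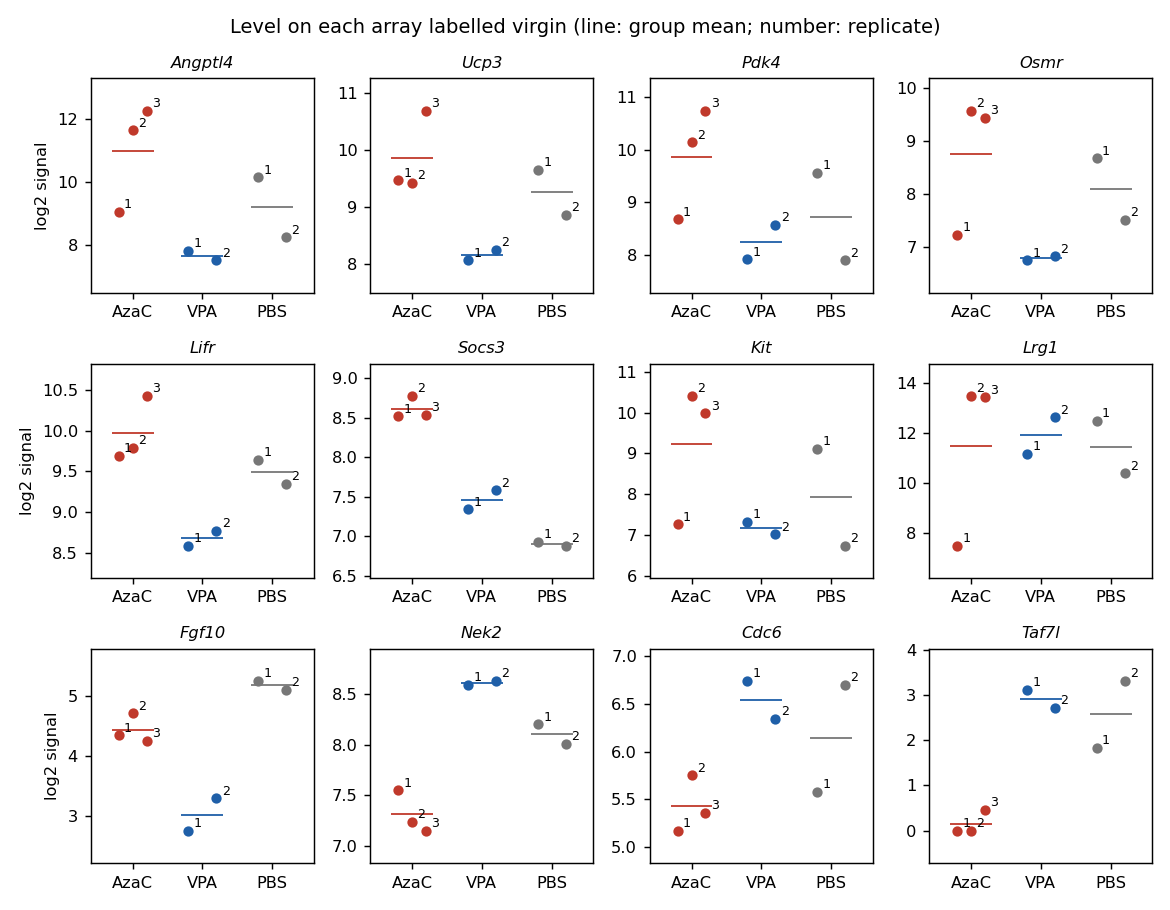
Level (log2 signal) of 12 genes on each array labelled virgin, with points for arrays (numbered by replicate), lines for group means, and AzaC, VPA and PBS from left to right. Angptl4, Osmr, Kit and Lrg1 show AzaC replicate 1 below the other AzaC arrays, whereas Socs3 shows close AzaC replicates. The AzaC points of Taf7l lie at or near 0, the lowest value of the scale.

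Genes of DNA replication had the highest share of members without overlap among the 40 lists. Of 32 measured members, all 32 had a negative difference, with a median of -0.62 against 0.02 over all genes. For 29 of them (90.6%, against 13.7% of all genes) all AzaC arrays lay below both VPA arrays, and 6 had an unadjusted p under 0.05 (2.49% of all genes in that direction), while none passed the adjusted threshold. The mean log2 level of the list was 8.19, 8.18 and 7.97 on the AzaC arrays, 8.78 and 8.63 on the VPA arrays, and 8.18 and 8.82 on the PBS arrays. The PBS replicates spanned the whole gap between the agents, and PBS replicate 1 lay below replicate 2 for 27 of the 32 genes. Without AzaC replicate 1, 31 members did not overlap (21.8% of all genes), and the median was -0.64. Without VPA replicate 2, 31 did not (26.5% of all genes), all lower in AzaC. On the pregnant-labelled arrays the median was 0.08. Dependence on the stage label was tested gene by gene, and 0 genes passed the adjusted threshold (limma, smallest adjusted p 0.998, with 434 genes, 3.50%, at an unadjusted p under 0.05).

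Within the list, differences ran from -1.11 to -0.01. Cdc6, which loads the MCM helicase at origins, read 5.17, 5.75 and 5.36 on the AzaC arrays, 6.74 and 6.34 on the VPA arrays, and 5.58 and 6.70 on the PBS arrays. Its difference was -1.11 ± 0.50. Lig1, the ligase of lagging-strand fragments, read 8.30, 8.65 and 8.36 under AzaC, 9.50 and 8.97 under VPA, and 8.52 and 9.18 under PBS. Pola1, the catalytic subunit of DNA polymerase alpha, read 6.19, 6.43 and 6.56, against 6.88 and 7.12 under VPA and 6.28 and 6.20 under PBS, with the smallest unadjusted p of the list at 0.0219. Pcna, the sliding clamp, had a difference of -0.73 ± 0.39 and Mcm5, a subunit of the helicase, one of -0.91 ± 0.43. E2f1 (-0.06) and Mcm10 (-0.01) were at the other end.

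Promoter windows are shown for 2 of these genes because replication genes are textbook targets of E2F factors. Windows of 300 bases (250 before to 50 after the annotated start, RefSeq, GRCm38.p6) were searched on both strands for TTTGGCGC, TTTCCCGC, TTTGCCGC and TTTCGCGC, and matches were allowed to overlap. A match was found for 13 of the 28 replication genes with a window (46.4%). Among measured genes with a mean of at least 6, 81% had a window, and 345 of those 7160 had a match (4.82%). The replication list itself includes 4 members with a mean under 6. Of the 27025 symbols in the table, 2.6% had a match. Those symbols include many genes that were not measured here, so that last share is not like for like. Of the replication genes, 87.5% had a window. The mitosis list had a match in 1 of 28 (3.57%). In both sequences, capitals mark the matches. The Pola1 window is chrX:93632106-93632405, minus strand, with 1 match, and the Mcm6 window is chr1:128359656-128359955, minus strand, with 3 matches, of which 2 overlap.
Pola1: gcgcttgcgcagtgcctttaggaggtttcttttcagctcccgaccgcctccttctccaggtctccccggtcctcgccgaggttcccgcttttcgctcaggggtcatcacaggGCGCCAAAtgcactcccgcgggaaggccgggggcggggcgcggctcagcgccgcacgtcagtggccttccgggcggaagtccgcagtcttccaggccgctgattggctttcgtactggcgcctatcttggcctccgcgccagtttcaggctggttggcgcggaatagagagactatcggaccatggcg
Mcm6: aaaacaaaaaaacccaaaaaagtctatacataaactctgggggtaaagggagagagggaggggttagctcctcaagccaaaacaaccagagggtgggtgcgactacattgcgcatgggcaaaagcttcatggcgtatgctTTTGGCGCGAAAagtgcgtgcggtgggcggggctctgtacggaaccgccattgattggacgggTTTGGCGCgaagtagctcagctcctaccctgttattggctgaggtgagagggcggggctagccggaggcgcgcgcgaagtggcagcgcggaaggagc

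Mitosis genes had a larger median but less uniform arrays. The median of the 33 measured members was -0.78, or between -0.98 and -0.62 with 1 array left out, and 31 were negative. On all AzaC arrays, 21 lay below both VPA arrays (63.6%, against 13.7% of all genes) and 1 above (3.03%, against 13.1%). Without AzaC replicate 1, 30 lay below (90.9%, against 21.8% of all genes), and without VPA replicate 2, 21 did (63.6%, against 26.5%). Aurka, a kinase of the spindle pole, read 8.15, 7.44 and 7.41 on the AzaC arrays, 8.89 and 9.08 on the VPA arrays, and 8.29 and 8.55 on the PBS arrays. Racgap1, needed for cytokinesis, had a difference of -0.92 ± 0.38. Mki67, the proliferation antigen, overlapped between the agents: it read 11.26, 9.72 and 9.74 under AzaC, 11.05 and 11.20 under VPA, and 10.72 and 11.81 under PBS. AzaC replicate 1 lay with VPA for Mki67, and its list mean was 7.91, against 7.39 and 7.35 on the other AzaC arrays, 8.11 and 8.41 under VPA and 8.03 and 8.43 under PBS. Cdc20, an activator of the anaphase-promoting complex, was the member higher in all AzaC arrays, at 11.0, 10.76 and 10.11, against 10.06 and 10.03 under VPA. Its PBS values were 10.38 and 9.22. On the pregnant-labelled arrays the list median was -0.01. In bulk samples, fewer cycling cells and less RNA per cell cannot be told apart.

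**Figure D3:**
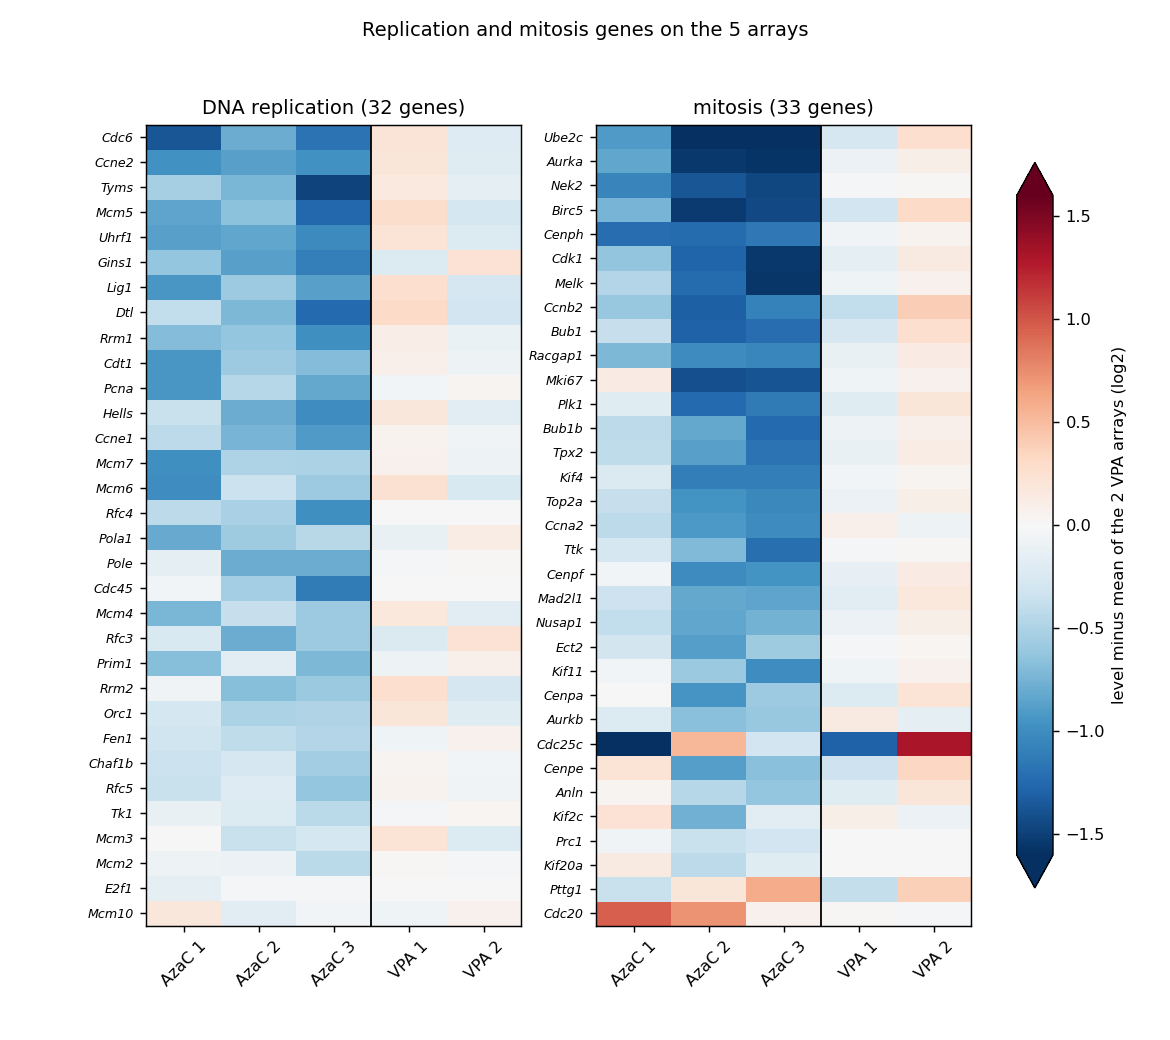
Level of the 32 DNA replication and 33 mitosis genes on the 5 arrays, as log2 level minus the mean of the 2 VPA arrays (blue lower, red higher, colour scale ends at 1.6). AzaC arrays are mostly blue for replication genes, and AzaC replicate 1 is paler than replicates 2 and 3 for many mitosis genes.

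Among 21 measured genes of fatty acid oxidation and PPAR targets, 16 had a positive difference and 5 a negative one. The median over members, set against the VPA mean, was 0 on AzaC replicate 1, 0.38 on replicate 2 and 0.55 on replicate 3. Of the 21, 7 lay above both VPA arrays on all AzaC arrays (33.3%, against 13.1% of all genes), and none lay below (13.7% of all genes). None passed the adjusted threshold, and 5 had an unadjusted p under 0.05 (limma), all higher in AzaC (4.07% of all genes). Besides Angptl4 and Ucp3 these were Pdk4, Acot1 and Acot2. Pdk4, a kinase that limits pyruvate oxidation, read 8.68, 10.14 and 10.74 on the AzaC arrays, 7.92 and 8.57 on the VPA arrays, and 9.56 and 7.90 on the PBS arrays. Acot1, an acyl-CoA thioesterase, read 8.77, 9.19 and 10.36, against 8.40 and 8.32 under VPA and 8.34 and 8.59 under PBS. Acot1 and Acot2 are close paralogues and may share probe signal. The list median was 0.29, 0.49 without AzaC replicate 1 and 0.19 without AzaC replicate 3, and -0.40 on the pregnant-labelled arrays. Without AzaC replicate 1, 16 members lay above VPA (30.4% of all genes) and 2 below, and without VPA replicate 2, 13 above (24% of all genes) and 0 below. Skeletal muscle also uses this programme: its 22 markers all had a negative difference (median -0.71), and none was at 0. Their mean level was 9.5, 10.73 and 11.5 under AzaC, 10.99 and 11.58 under VPA, and 11.28 and 10.20 under PBS, with AzaC replicate 1 lowest of the AzaC arrays for all 22. Only 1 marker (4.55%, against 13.7% of all genes) read lower on all AzaC arrays than on both VPA arrays. The muscle median was -0.09 without AzaC replicate 1, -1.26 without AzaC replicate 3, -1.07 without VPA replicate 1 and -0.40 without VPA replicate 2, and its part in the fatty acid result was not tested.

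Genes of the LIF and STAT3 axis included a feedback inhibitor and 2 receptors whose brightest probe sets read higher on all AzaC arrays than on both VPA arrays. Socs3, which switches off cytokine receptor signalling, read 8.52, 8.78 and 8.54 on the AzaC arrays, 7.34 and 7.58 on the VPA arrays, and 6.93 and 6.88 on the PBS arrays. Its difference was 1.15 ± 0.29 (unadjusted p 0.00198, adjusted p 0.568), and all 3 groups were separated on every array. The other Socs3 probe sets differed by 0.83 and 1.03, without overlap between AzaC and VPA. Lifr, the LIF receptor, read 9.69, 9.79 and 10.43 under AzaC, 8.59 and 8.77 under VPA, and 9.64 and 9.35 under PBS, a difference of 1.29 ± 0.32. The other, dimmer Lifr probe sets differed by 0.40 and 0.84, and AzaC and VPA overlapped on them. Osmr, the oncostatin M receptor, read 7.24, 9.58 and 9.45, against 6.75 and 6.83 under VPA and 8.68 and 7.52 under PBS. AzaC replicate 1 was close to VPA for Osmr. On the dimmer Osmr probe set it overlapped, at 5.64, against 5.87 and 5.78 on the VPA arrays. Of the 22 measured members, 5 lay above VPA on all AzaC arrays (22.7%, against 13.1% of all genes) and 1 below (4.55%, against 13.7%). An unadjusted p under 0.05 (limma) was reached by 4, all higher in AzaC (4.07% of all genes). The list median was 0.30. That median was 0.87 without AzaC replicate 1, 0.14 without AzaC replicate 2, 0.05 without AzaC replicate 3 and 0.13 without VPA replicate 1. Without AzaC replicate 1, 18 of the 22 lay above VPA (81.8%, against 30.4% of all genes) and 2 below. Lrg1, a leucine-rich acute-phase glycoprotein, read 7.5, 13.48 and 13.42 on the AzaC arrays, 11.17 and 12.62 on the VPA arrays, and 12.49 and 10.39 on the PBS arrays. Lrg1 was picked after its values were seen, and the 3 AzaC arrays spanned more than the other groups.

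Luminal progenitor markers varied in the same arrays. Kit, the stem cell factor receptor, read 7.26, 10.41 and 9.98 on the AzaC arrays, 7.32 and 7.02 on the VPA arrays, and 9.11 and 6.74 on the PBS arrays. Cd14, a lipopolysaccharide co-receptor, read 10.35, 13.24 and 13.35 under AzaC, 10.44 and 11.01 under VPA, and 12.20 and 10.62 under PBS. For both genes AzaC replicate 1 lay near the VPA arrays and PBS replicate 2, whereas the other AzaC arrays and PBS replicate 1 were high. Of 14 members, 4 did not overlap, all higher in AzaC (28.6%, against 13.1% of all genes), and 11 were higher without AzaC replicate 1 (78.6%, against 30.4% of all genes). The median was 0.48, 0.73 without AzaC replicate 1, 0.29 without replicate 2 and 0.22 without replicate 3. The 16 luminal epithelial markers averaged 10.31, 11.08 and 11.13 under AzaC, 10.60 and 10.56 under VPA, and 10.46 and 10.36 under PBS. AzaC replicate 1 was lowest of the AzaC arrays for 14 of the 16. Krt8, a luminal keratin, read 11.10, 12.42 and 12.58, against 11.90 and 11.86 under VPA and 11.37 and 12.12 under PBS, and overlapped. Krt14, a basal keratin, overlapped as well, at 9.68, 10.50 and 10.63 under AzaC, 10.58 and 10.16 under VPA, and 10.50 and 10.39 under PBS.

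**Figure D4:**
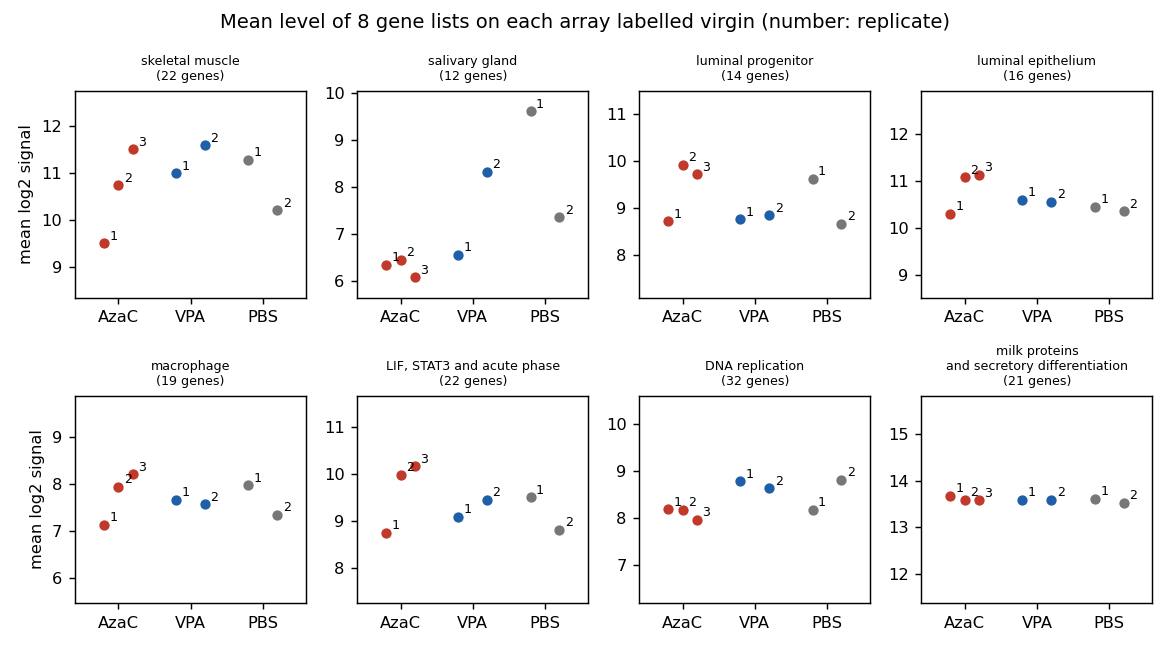
Mean log2 level of 8 gene lists on each array labelled virgin, with AzaC, VPA and PBS from left to right, replicate numbers beside the points, and the same axis height in every panel. AzaC replicate 1 is the lowest of the 7 arrays for skeletal muscle and lies with VPA for luminal progenitor markers, and milk genes are level on all arrays.

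Salivary gland genes were far higher on some arrays than on others of the same group. Bpifa2, a salivary secretory protein, read 5.86, 7.51 and 5.03 on the AzaC arrays, 7.84 and 12.69 on the VPA arrays, and 13.79 and 10.01 on the PBS arrays. Smr3a, a submaxillary gland protein, read 4.06, 4.61 and 2.89, against 5.05 and 10.55 under VPA and 13.08 and 8.61 under PBS. The list of 12 averaged 6.35, 6.45 and 6.08 under AzaC, 6.56 and 8.33 under VPA, and 9.62 and 7.36 under PBS, and no member was at 0. Its median difference was -0.76, and -0.03 without VPA replicate 2. Its part in any other result was not tested.

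None of the listed enzymes of DNA methylation and histone acetylation, or of the genes held silent by DNA methylation, passed the adjusted threshold. Dnmt1, the maintenance methyltransferase, read 9.92, 10.26 and 10.28 on the AzaC arrays, 10.38 and 10.04 on the VPA arrays, and 10.05 and 10.49 on the PBS arrays, and overlapped. Hdac1, a class I deacetylase, read 10.09, 10.29 and 10.23 under AzaC, 10.56 and 10.53 under VPA, and 9.86 and 10.62 under PBS, a difference of -0.34 ± 0.22. Of 21 deacetylases and acetyltransferases, 17 had a positive difference and 4 a negative one, with a median of 0.34 (0.22 without AzaC replicate 3). On all AzaC arrays, 7 lay above VPA (33.3%, against 13.1% of all genes) and 2 below (9.52%, against 13.7%). Without AzaC replicate 1, 11 lay above (52.4%, against 30.4% of all genes). Hdac7 (0.59 ± 0.22) and Hdac5 (0.60 ± 0.26), both class IIa deacetylases, had an unadjusted p under 0.05. Of 28 imprinted genes, 4 were above (14.3%, against 13.1% of all genes) and 1 below (3.57%, against 13.7%) without overlap. Their median was 0.11, and it was 0.01 without AzaC replicate 1, 0.17 without AzaC replicate 2 and 0 without VPA replicate 1. Without VPA replicate 2, 10 were above (24% of all genes) and 6 below (26.5%). Phlda2, a placental growth regulator, read 5.03, 4.42 and 4.52 under AzaC, 3.72 and 3.17 under VPA, and 4.13 and 3.35 under PBS.

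Of 25 germline genes silenced by DNA methylation, 3 lay above VPA without overlap (12%, against 13.1% of all genes) and 7 below (28.0%, against 13.7%). The list median was 0.01, and 22 of the 25 had a mean under 6. An unadjusted p under 0.05 (limma) was reached by 5 lower in AzaC (2.49% of all genes) and 2 higher (4.07%). The median was 0.10 without AzaC replicate 2, -0.14 without VPA replicate 2, and -0.45 over the members left when dim genes were dropped. Without VPA replicate 2, 11 lay below (26.5% of all genes). Taf7l, a testis TFIID subunit, was listed at 0, 0 and 0.46 on the AzaC arrays, against 3.11 and 2.72 on the VPA arrays and 1.83 and 3.31 on the PBS arrays. The difference was -2.76 ± 0.43 (adjusted p 0.121). On the pregnant-labelled arrays Taf7l read 0, 1.11 and 0.35 under AzaC and 2.85, 2.36 and 2.14 under VPA, a difference of -1.96 ± 0.38 (unadjusted p 0.000286, adjusted p 0.885), and these groups did not overlap either. Stra8, which starts meiosis, was listed at 0.25, 0 and 0.03 under AzaC, 4.52 and 3.72 under VPA, and 2.71 and 0 under PBS, a difference of -4.03 ± 0.96. With the pregnant label, Stra8 was listed at 0, 2.19 and 1.5 under AzaC and 3.12, 0.35 and 0 under VPA. There the groups overlapped, with a difference of 0.07 ± 0.86. With values under 5 raised to 5, the difference of Taf7l was 0, and every Stra8 value was under 5 as well. Dazl, an RNA-binding protein of germ cells, overlapped at 3.42, 2.57 and 2.57, against 3.14 and 2.79 under VPA and 3.24 and 1.56 under PBS. The windows of Taf7l (chrX:134476441-134476740, minus strand, 17 CpG) and Stra8 (chr6:34920698-34920997, plus strand, 10 CpG) are shown because CpG is where DNA methylation sits, and capitals mark CpG. A comparison of CpG content between gene sets was void, since 79.8% of all measured genes and 76% of the germline list had a window, under the 80% set for such a check. Match shares above were therefore not set against all measured genes, only against those with a mean of at least 6.
Taf7l: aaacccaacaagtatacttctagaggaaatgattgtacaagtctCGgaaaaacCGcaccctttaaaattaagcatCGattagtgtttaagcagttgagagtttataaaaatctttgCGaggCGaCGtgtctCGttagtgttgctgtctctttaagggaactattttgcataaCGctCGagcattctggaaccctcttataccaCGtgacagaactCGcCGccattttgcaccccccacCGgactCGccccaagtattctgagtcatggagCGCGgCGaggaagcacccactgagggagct
Stra8: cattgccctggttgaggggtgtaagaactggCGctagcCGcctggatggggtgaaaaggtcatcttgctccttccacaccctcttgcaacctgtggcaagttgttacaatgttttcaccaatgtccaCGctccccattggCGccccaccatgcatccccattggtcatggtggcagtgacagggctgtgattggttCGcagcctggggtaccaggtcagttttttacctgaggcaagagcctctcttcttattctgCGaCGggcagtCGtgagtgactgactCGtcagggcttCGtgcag

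Other lists were described by count only. Oxidative phosphorylation genes had 20 of 46 members below VPA without overlap and 1 above (43.5% and 2.17%, against 13.7% and 13.1% of all genes). Their median was -0.20 (-0.12 without VPA replicate 2), and -0.42 on the pregnant-labelled arrays. Cycs (cytochrome c) read 11.75, 11.57 and 11.33 under AzaC, 12.11 and 12.24 under VPA, and 11.28 and 12.20 under PBS, and PBS replicate 1 lay below replicate 2 for 41 of the 46. Cholesterol synthesis had 7 of 18 below (38.9%, against 13.7% of all genes) and 0 above (13.1% of all genes). Its median was -0.29, or -0.10 without VPA replicate 1 and -0.46 without VPA replicate 2. Its count below was 13 without AzaC replicate 1 (21.8% of all genes) and 14 without VPA replicate 2 (26.5%). Integrated stress response genes had 9 of 23 below (39.1%, against 13.7% of all genes) and 2 above (8.7%, against 13.1%). Without AzaC replicate 1, 6 lay above (26.1%, against 30.4% of all genes). Mthfd2, a mitochondrial folate enzyme of that list, read 8.05, 7.73 and 7.47, against 8.52 and 8.34 under VPA and 7.85 and 8.27 under PBS, at an unadjusted p of 0.00894. TGF-beta and WNT signalling genes had 5 of 31 above (16.1%, against 13.1% of all genes) and 0 below (13.7% of all genes), with a median of 0.46. Without AzaC replicate 1, they had 21 above (67.7%, against 30.4% of all genes) and 1 below. Dkk3, a secreted WNT modulator, read 6.46, 6.87 and 6.70, against 5.75 and 6.13 under VPA and 6.86 and 6.60 under PBS. Circadian clock genes had 5 of 17 above (29.4%, against 13.1% of all genes) and 4 below (23.5%, against 13.7%). Without VPA replicate 2, 7 lay below (41.2%, against 26.5% of all genes). Cry1, a repressor of the clock, read 7.67, 7.66 and 7.88, against 8.49 and 8.25 under VPA and 7.69 and 8.47 under PBS. Macrophage markers had 0 of 19 in either direction, against 26.8% of all genes. Their mean was 7.13 on AzaC replicate 1, 7.94 and 8.20 on the other AzaC arrays, 7.66 and 7.56 under VPA, and 7.97 and 7.34 under PBS. Without AzaC replicate 1, 13 of the 19 lay above VPA (68.4%, against 30.4% of all genes) and 2 below. No list of the 40 had a gene past the adjusted threshold.

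**Figure D5:**
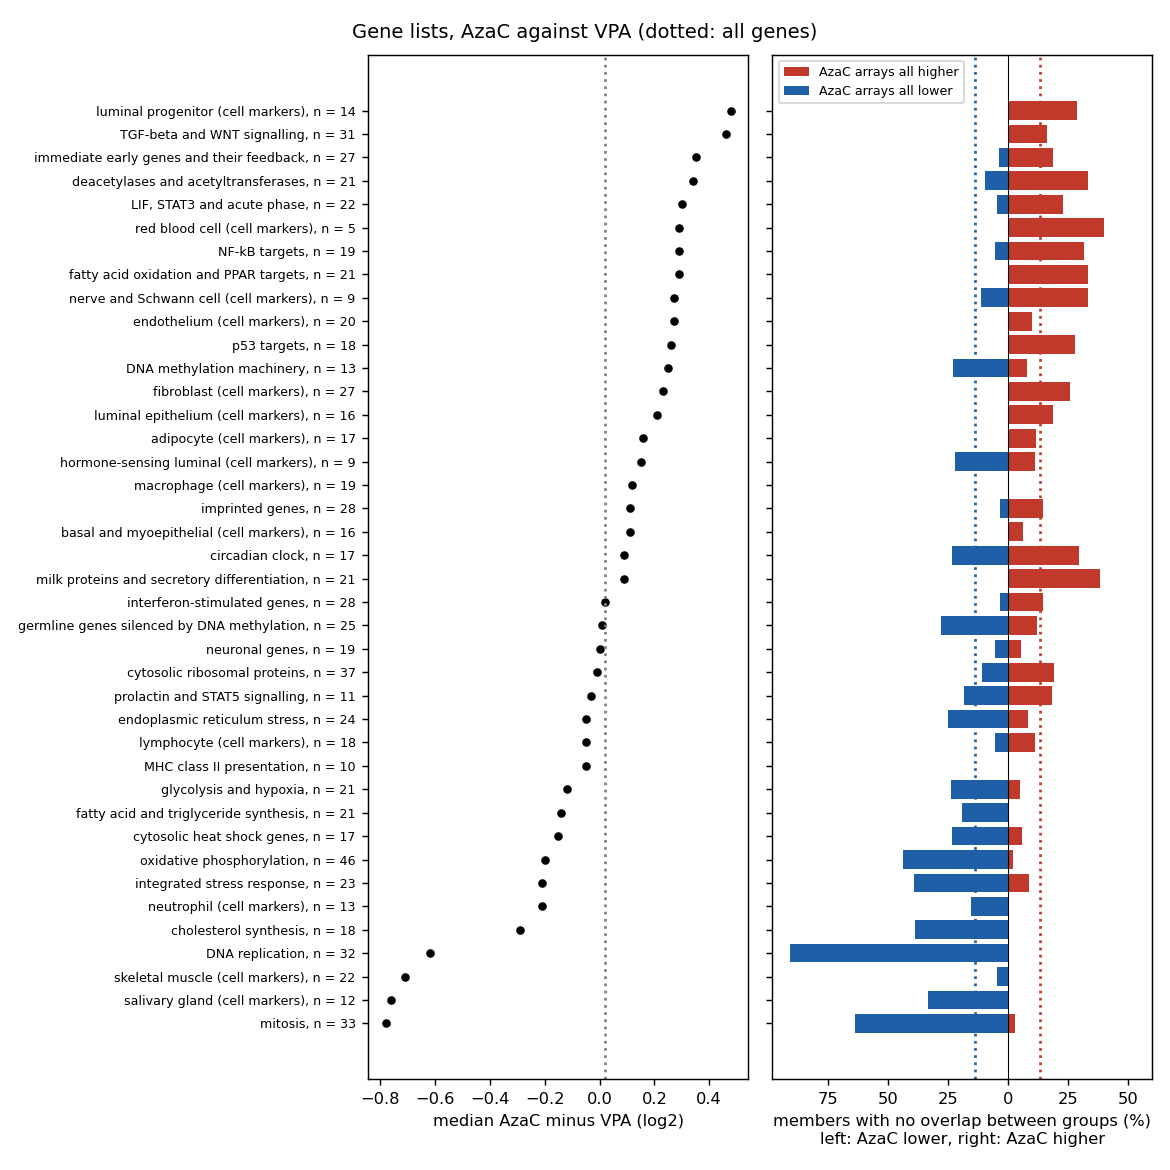
Left, median difference (log2, AzaC minus VPA) of each of 40 gene lists; right, the percentage of members with no overlap between the 3 AzaC and 2 VPA arrays, to the right where AzaC was higher and to the left where it was lower. Dotted lines give all genes, and DNA replication reaches 90.6% on the left.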

How the data were processed

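Values are the authors' deposited log2 signals of Affymetrix arrays, 22690 probe sets by 15 arrays. The base of the logarithm and the background, summary and normalization methods are not given in the sources used here. Values were taken as log2 from their range and used as deposited, because array medians were alike (7.22 to 7.47). Symbols came from the platform annotation: 20380 probe sets had 1 symbol, 691 several and 1619 none (64 controls). Each of 12393 genes was represented by its brightest single-symbol probe set (mean of the 15 arrays), of which 12377 (99.9%) were in the RefSeq table.

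A mean per group was fitted to all 15 arrays with limma 3.58.1 (R 4.3.3; 9 residual and 2.31 prior degrees of freedom), and p-values were two-sided and adjusted by Benjamini-Hochberg. The fit was tested on simulated data. Differences are AzaC minus VPA with SE. "No overlap" means that all AzaC arrays lay above, or below, both VPA arrays. With 3 against 2 arrays, precision is limited. Genes named were the 12 largest differences in each direction among genes with an unadjusted p under 0.01, no overlap and a mean of at least 6, the 2 smallest p in each list, a fixed set (H19 is not measured) and the smallest p for stage dependence, and not all are described. Others were chosen after their values were seen. The members and the 40 lists (796 of 932 entries measured) were chosen with earlier results of these data known. Alternatives are given in the closing section. Figures were drawn with matplotlib 3.10.9.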

Additional observations from a re-analysis of the deposited data

How the results depend on the processing

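For AzaC against VPA, 0 genes passed under quantile normalization, without dim genes, with the mean of all probe sets, with trend and robust settings, with a minimum of 1.5-fold and with the replicate block (0 genes). A floor at 5 gave 2 genes (Trim13 and Slc25a38), the Gapdh 3' to 5' covariate 1 (Akr1c13) and a fit of only the arrays compared 1 (Oas1e), all dim genes with a mean under 6. Leaving out each array gave between 0 and 17 genes, with 17 without VPA replicate 2. For the dependence on the stage label, a floor at 5 gave 1 gene, and leaving out each array gave between 0 and 3. Replicate numbers were not used to pair arrays: correlations of deviations between 33 same-numbered pairs ran from -0.174 to 0.333. With the mean of all probe sets, Mmab was 0.15 and Pnmt 0.88, against -0.80 and -0.71. The causes were not tested. Counts of members without overlap were also taken without AzaC replicate 1 and without VPA replicate 2, chosen after seeing the data, where fewer arrays raise the count for all genes too: 30.4% higher and 21.8% lower without AzaC replicate 1, and 24.0% and 26.5% without VPA replicate 2. Precision is limited by 2 VPA arrays and by dim probes.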

Other observations

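Among dim genes, Fgf10 (a fibroblast growth factor of the stroma) read 4.35, 4.72 and 4.26 on the AzaC arrays, 2.76 and 3.30 on the VPA arrays, and 5.26 and 5.11 on the PBS arrays. Fut1, a fucosyltransferase, read 1.46, 2.92 and 1.18 under AzaC, 5.01 and 4.73 under VPA, and 4.10 and 3.98 under PBS. Epha3, an ephrin receptor, read 2.37, 3.17 and 3.05 under AzaC, 5.03 and 4.30 under VPA, and 4.34 and 4.43 under PBS, but its other probe sets differed by -0.51 and 1.04. The smallest p-values for dependence on the stage label were those of Eqtn, Oas1e and Cdr2l. Oas1e was listed at 0 on all AzaC arrays, against 3.17 and 3.30 under VPA and 3.11 and 4.49 under PBS, and Cdr2l was listed at 0 on every array labelled virgin.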
